A study of Mus musculus with 8 samples.

Results

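The BCL2 family decides whether the outer mitochondrial membrane stays intact. Its anti-apoptotic proteins hold back the effectors BAX and BAK, which otherwise form pores that release cytochrome c, and its BH3-only proteins carry signals of damage by binding the anti-apoptotic proteins or the effectors. Pluripotent stem cells are known to die readily after DNA damage, and the genes of the BH3-only proteins PUMA and NOXA and of BAX are textbook targets of the transcription factor p53. The 10 genes examined here, of 23420 gene symbols in the count tables, were taken by symbol. They are 3 anti-apoptotic genes (Bcl2, Bcl2l1 for BCL-XL, Mcl1), the 2 effector genes (Bax, Bak1) and 5 BH3-only genes (Bcl2l11 for BIM, Bbc3 for PUMA, Pmaip1 for NOXA, Bid and Bmf). All 10 were found and all 10 had counts in each library.

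RNA-seq was performed on IPO13+/+ and IPO13-/- mouse embryonic stem cells (mESCs) to ask how the loss of importin 13, a nuclear transport receptor, alters transcription in stressed cells. The 4 groups of 2 libraries each were untreated IPO13+/+ cells, IPO13+/+ cells exposed to 125 µM H2O2 for 1 h and left in clean medium for 2 h, and IPO13-/- cells without and with the same exposure. All lines were of 129 x C57BL/6 background, came from preimplantation blastocysts and grew without feeders in medium with LIF. The labels tell no separate lines of a genotype apart, so line and genotype cannot be told apart. The labels do not say whether the 2 libraries of a group came from separate cultures, and p-values measure only the spread between these libraries, which may be technical.

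Between 60397877 and 73789079 reads per library were counted on genes, so that 3 counts, taken as the smallest level told from 0 and covering counting error only, correspond to 0.0407 to 0.0497 CPM (counts scaled to the library size with TMM factors). The level of Ipo13 was 69.3 ± 1.39 CPM without and 70.9 ± 2.20 CPM with treatment in the IPO13+/+ line, against 25.5 ± 0.636 and 25.4 ± 0.753 CPM in the knockout line (SD, n = 2). All 8 pluripotency markers examined, Pou5f1 and Nanog among them, were expressed, and their summed level ran from 5482 to 6917 CPM, with the lowest sums in untreated IPO13-/- and the highest in untreated IPO13+/+ libraries. Feeder fibroblast markers summed to at most 9.23 CPM, primitive endoderm markers to at most 7.03 CPM and trophectoderm markers to at most 25.3 CPM. Markers of the primed epiblast summed to 289 to 398 CPM, and the sum was highest in untreated IPO13-/- libraries. Most of this sum was Dnmt3b (241 to 323 CPM), followed by Foxd3 (28.1 to 52.3 CPM). Otx2 and Pou3f1 reached at most 14.0 and 10.1 CPM, and Fgf5 and T at most 1.44 and 0.673 CPM. The sum therefore does not show a primed state. The part of these marker differences in the results below was not tested.

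What joins the family is the BH3 motif, the short helix through which its members bind each other. Its coding sequence is shown for 9 of the 10 genes, all but Pmaip1, to let the proteins that hold back death be compared with those that promote it. Each line gives 30 coding bases, 5′ to 3′ on the strand of the gene, from GENCODE M21 on GRCm38 (the mm10 build), and the capitals mark the codons of the leucine and of the small residue and aspartate that follow it. The stretch was found by translating the longest complete coding transcript and searching for leucine, any 3 residues, glycine or alanine, and aspartate. Each of the 9 proteins held exactly 1 match.
Bcl2, chr1:106712575-106712604, minus strand: accCTCcgccgggctGGGGATgacttctct
Bcl2l1, chr2:152829697-152829726, minus strand: gcgCTGagagaggcaGGCGATgagtttgaa
Mcl1, chr3:95659433-95659462, plus strand: accCTGcggcgcgtgGGCGACggcgtgcag
Bax, chr7:45465997-45466026, minus strand: tgtCTCcggcgaattGGAGATgaactggac
Bak1, chr17:27022531-27022560, minus strand: cagCTTgctctcatcGGAGATgatattaac
Bcl2l11, chr2:128147147-128147176, plus strand: gagCTGcggcggatcGGAGACgagttcaac
Bbc3, chr7:16313770-16313799, plus strand: cagCTGcggcggatgGCGGACgacctcaac
Bid, chr6:120897289-120897318, minus strand: catCTCgcccaaataGGCGATgagatggac
Bmf, chr2:118545100-118545129, minus strand: aagCTTcagtgtattGCAGACcagttccat
The residue before the aspartate was glycine in 7 of these and alanine in Bbc3 and Bmf. The search fixed the leucine and the aspartate in advance, so these positions cannot separate anti-apoptotic, effector and BH3-only genes. It also allowed only glycine or alanine before the aspartate, so no other residue could appear there. At that restricted position, alanine occurred only in BH3-only genes, while the BH3-only genes Bcl2l11 and Bid held glycine like the other classes.

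The members differed far more from each other than any of them differed between conditions. Per kilobase of exon, which allows genes to be compared, Mcl1 was the highest with a median of 168 CPM per kb over the 8 libraries (146 to 184), followed by Bax with 135 CPM per kb (118 to 158). These ranges overlapped, so the order of Mcl1 and Bax was not separated over the libraries, although Mcl1 was above Bax in the mean of each group. Next came Pmaip1 with a median of 39.9 CPM per kb (32.3 to 49.7) and Bak1 with 25.8 CPM per kb (24.2 to 30.2), each range clear of its neighbours. Bid, Bbc3 and Bcl2l1 followed with medians of 18.8, 16.1 and 14.0 CPM per kb, and their ranges overlapped from one to the next. Bcl2l11 with 4.55 CPM per kb and Bmf with 2.18 CPM per kb were lower and separate. Bcl2, the founding member of the family, had a median of 0.0415 CPM per kb, and the libraries held only 17 to 36 Bcl2 reads. With the length of the longest transcript in place of all exons, Bax came before Mcl1, Bid before Bak1, and Bcl2l1 before Bbc3.

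**Figure D1:**
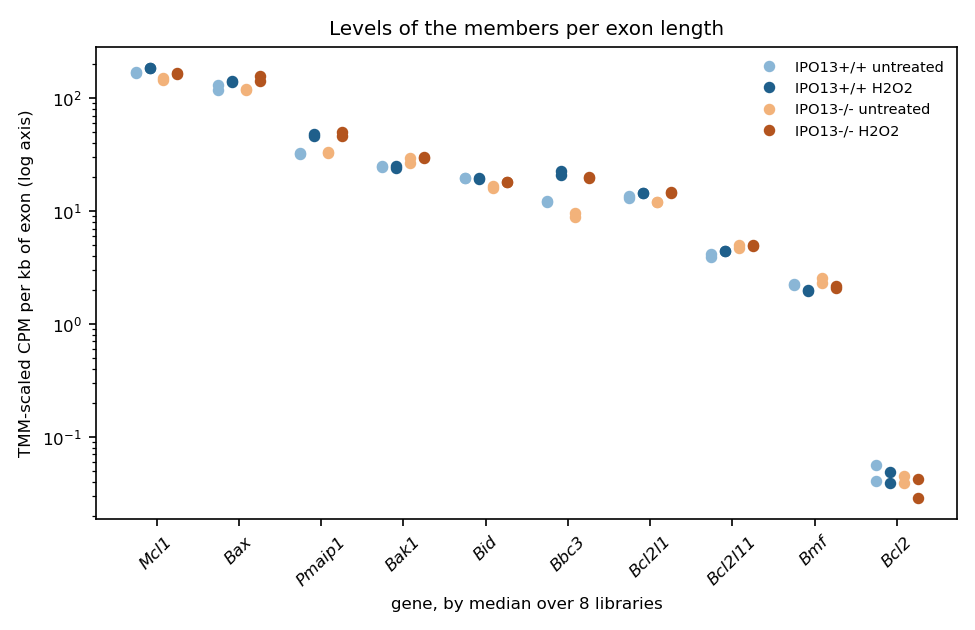
TMM-scaled CPM per kilobase of exon (log axis) for the 10 members, ordered by their median over 8 libraries. Each point is 1 library, coloured by group. Mcl1 and Bax stood highest, between 118 and 184 CPM per kb, and Bcl2 lay below 0.06 CPM per kb in each library.

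Per kilobase of all exons, the places in this order that changed between groups were those of Bid, Bbc3 and Bcl2l1. Bbc3 was number 7 of the 10 in the untreated cells of both genotypes and number 5 in the treated cells of both genotypes, above Bid and Bcl2l1. This change of place depended on the length used. Per kilobase of the longest transcript, Bbc3 was number 7 without treatment in both genotypes, number 6 in treated IPO13+/+ cells and still number 7 in treated IPO13-/- cells, below Bid and Bcl2l1 in each group.

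Bbc3 spans chr7:16308393-16318205 on the plus strand, Bax chr7:45461697-45466898 on the minus strand and Mcl1 chr3:95658788-95663176 on the plus strand of GRCm38. Exons of 4 members overlap other genes. In GENCODE M21, 17.7% of the exon bases of Bid lie opposite exons of Bcl2l13, which had 4199 to 5208 counts per library, and 25.5% of those of Bak1 lie opposite exons of Ggnbp1, which had 131 to 174. Bax shares 12.2% of its exon bases with Gm45808 on the same strand, and Bcl2 has 6.09% opposite the antisense gene D630008O14Rik. Whether reads were counted by strand is not given in the sources used here, so values of Bid and Bak1 in particular are uncertain to that extent.

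After H2O2, IPO13+/+ cells carried more mRNA of the BH3-only genes Bbc3 and Pmaip1, and slightly more of Bax and Mcl1. In this comparison 4 of the 10 members were higher at an FDR below 0.05 (edgeR's quasi-likelihood test, Benjamini-Hochberg adjusted over 19424 genes) and 0 were lower. Bmf alone was lower at an unadjusted p below 0.05, limma-voom and DESeq2 also called 0 lower, and Bmf passed in 1 of 16 alternative fits. Of all genes tested, 11.5% were called higher and 13.8% lower. Among the 8620 genes with a mean of at least 10 CPM, which 9 of the members are, 13.2% were higher and 25.2% lower. No member passed 2-fold, while 2.9% of all genes did in either direction. The members had a median log2 fold change of 0.11, and all genes of -0.00. In bulk RNA, fewer cells of a type and less RNA per cell cannot be told apart.

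Bbc3 encodes PUMA, a BH3-only protein that binds all the main anti-apoptotic members. In IPO13+/+ cells its level was 25.7 and 26.3 CPM without treatment and 47.8 and 44.4 CPM after H2O2. Both treated libraries lay far above both untreated ones, and the rise was 1.77-fold (log2 0.83, 95% CI 0.72 to 0.93, FDR 9.3e-13). In IPO13-/- cells the values were 18.9 and 20.4 CPM without treatment and 42.0 and 42.5 CPM after H2O2. The groups again did not overlap, and the rise was 2.15-fold (log2 1.11, 95% CI 1.00 to 1.22, FDR 3.6e-15). Ranked by log2 fold change among the 8620 expressed genes, Bbc3 was 112th in IPO13+/+ and 67th in IPO13-/- cells.

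Pmaip1 encodes NOXA, a BH3-only protein known for binding MCL1. Its level in IPO13+/+ cells was 88.2 and 89.6 CPM without treatment and 126 and 133 CPM after H2O2. The IPO13-/- libraries had 92.0 and 88.5 CPM without treatment and 126 and 136 CPM after H2O2. In both genotypes the treated libraries were clear of the untreated ones, and the 2 genotypes gave nearly the same values in each condition. The rise was 1.46-fold in IPO13+/+ (log2 0.54, 95% CI 0.45 to 0.64, FDR 2.9e-10) and 1.45-fold in IPO13-/- cells (log2 0.54, 95% CI 0.45 to 0.63, FDR 2.8e-10). The difference between the 2 responses was -0.00 on the log2 scale, with a 95% CI of -0.14 to 0.13.

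**Figure D2:**
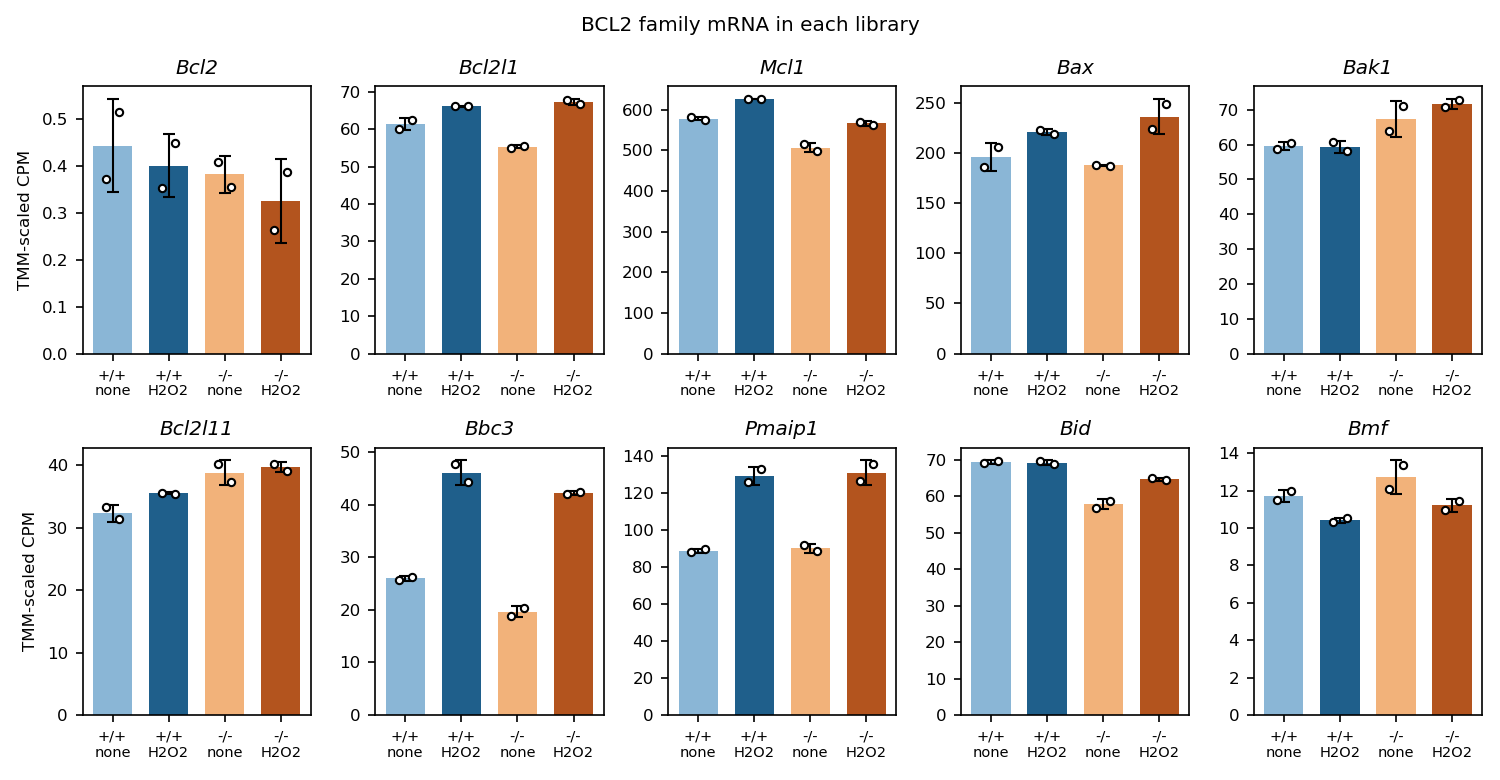
TMM-scaled CPM of each member in untreated and H2O2-treated IPO13+/+ and IPO13-/- cells. Points are single libraries, bars their mean and error bars the SD over 2 libraries. Bbc3 and Pmaip1 were higher in each treated than in each untreated library of the same genotype, and Bcl2 stayed below 0.6 CPM.

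The effectors responded unequally. Bax, whose protein moves to the mitochondria and forms pores, went in IPO13+/+ cells from 186 and 206 CPM to 223 and 219 CPM, a rise of 1.13-fold (log2 0.17 ± 0.05 SE, FDR 0.0088). Without IPO13 it went from 188 and 187 CPM to 224 and 249 CPM, a rise of 1.26-fold (log2 0.33 ± 0.05 SE, FDR 4.7e-06). The libraries did not overlap in either genotype. Bak1, whose protein resides at the mitochondria, had log2 fold changes of -0.00 (95% CI -0.11 to 0.10) and 0.09 (95% CI -0.01 to 0.19), neither past the threshold. The call of Bax in IPO13+/+ cells depended on single libraries, since its FDR became 0.13 without untreated replicate 1, 0.11 without treated replicate 1 and 0.0503 without treated replicate 2. That of Bak1 in IPO13-/- cells passed only without untreated replicate 2 (log2 0.19, FDR 0.026).

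Among the anti-apoptotic genes, Mcl1, which encodes a short-lived protein, went in IPO13+/+ cells from 582 and 575 CPM to 627 and 627 CPM. The groups did not overlap and the rise was 1.08-fold (log2 0.12 ± 0.04 SE, FDR 0.018), with an FDR of 0.13 without treated replicate 1 and 0.12 without treated replicate 2. In IPO13-/- cells Mcl1 rose from 515 and 499 CPM to 571 and 563 CPM, or 1.12-fold (log2 0.16 ± 0.04 SE, FDR 0.0011). Bcl2l1, which encodes BCL-XL, had a log2 fold change of 0.11 in IPO13+/+ cells (FDR 0.072). Without IPO13 it rose from 55.0 and 55.6 CPM to 67.9 and 66.7 CPM, or 1.22-fold (log2 0.28 ± 0.04 SE, FDR 1.2e-05). Bcl2 was too low for a change of this size to be detectable, with 95% intervals from -0.72 to 0.42 in IPO13+/+ and from -0.88 to 0.39 in IPO13-/- cells on the log2 scale.

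The other BH3-only genes moved little. Bcl2l11, which encodes BIM, had a log2 fold change of 0.14 in IPO13+/+ (FDR 0.051) and 0.03 in IPO13-/- cells (FDR 0.71). In IPO13+/+ cells the values of Bcl2l1 and Bcl2l11 were all higher after treatment. Over 16 alternative fits Bcl2l1 passed in 8 and Bcl2l11 in 10, both with library totals (FDRs of 0.015 and 0.012) and with filterByExpr (0.018 for each), and neither with limma-voom or DESeq2. With 1 library left out, the FDR of Bcl2l1 was 0.035 without untreated replicate 2, 0.044 without either untreated IPO13-/- library and 0.035 without either treated IPO13-/- library. The FDR of Bcl2l11 was 0.018 without untreated replicate 1, 0.033 without either untreated IPO13-/- library and 0.025 without either treated IPO13-/- library.

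Bid, whose protein is cut by caspase-8 and so joins the death receptor pathway to mitochondria, had 69.0 and 69.7 CPM before and 69.7 and 68.7 CPM after treatment of IPO13+/+ cells, values that overlapped. In IPO13-/- cells it rose from 56.8 and 58.8 CPM to 64.8 and 64.4 CPM, or 1.12-fold (log2 0.16 ± 0.04 SE, FDR 0.0060), with an FDR of 0.083 without untreated replicate 1. Bmf, a BH3-only gene linked to loss of attachment, was the only member that fell. It went from 12.1 and 13.4 CPM to 11.0 and 11.4 CPM in IPO13-/- cells (log2 -0.18 ± 0.07 SE, FDR 0.041). The FDR of Bmf was 0.44 without untreated replicate 2, 0.28 without treated replicate 1, 0.11 without treated replicate 2 and 0.061 without either treated IPO13+/+ library. In IPO13+/+ cells Bmf had a log2 fold change of -0.17 (FDR 0.065).

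In IPO13-/- cells, then, 6 of the 10 members were higher and 1 was lower after H2O2, while 14.9% of all genes were called higher and 14.4% lower. Among the 8620 expressed genes 21.5% were higher and 22.8% lower. Bbc3 was the only member past 2-fold, as 2.89% of all genes were. The members had a median of 0.16 on the log2 scale, and all genes of 0.00.

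**Figure D3:**
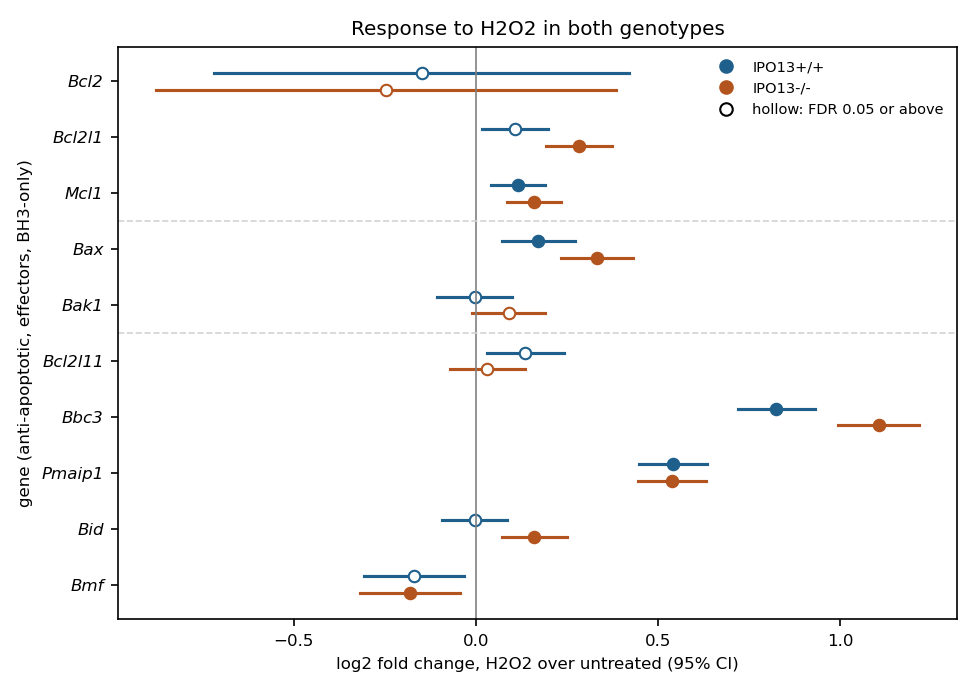
Log2 fold change after H2O2 in IPO13+/+ and IPO13-/- cells for each member, with 95% confidence intervals. Filled points passed an FDR of 0.05. Bbc3 and Pmaip1 lay farthest to the right in both genotypes, and the interval of Bcl2 was the widest.

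To compare the responses themselves, the difference between them was tested as an interaction. Bbc3 alone passed, with a log2 difference of 0.28 in the direction of a larger response in IPO13-/- cells (95% CI 0.13 to 0.43, FDR 0.038). For 1 of 10 members higher and 0 lower, the shares over all genes were 2.01% and 0.705%, and 0.144% passed 2-fold. At an unadjusted p below 0.05, 4 members were higher and 0 lower, and limma-voom and DESeq2 called 0 lower. Over 15 alternative fits the log2 difference of Bbc3 stayed between 0.21 and 0.33, but its FDR ranged from 0.0047 to 0.46 and was below 0.05 in 4 of them. It was lost with limma-voom (FDR 0.10), the method of the study, and without each of 6 libraries, from an FDR of 0.064 without treated IPO13+/+ replicate 1 to 0.46 without untreated IPO13-/- replicate 1.

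The other 9 members did not pass this test. Bcl2l1, Bid and Bax had differences of 0.18, 0.16 and 0.16, with intervals above 0 and FDRs of 0.14, 0.17 and 0.25. Without untreated IPO13+/+ replicate 1, Bcl2l1 (FDR 0.044) and Bax (FDR 0.016) passed as well. Thus the call of Bcl2l1 and of Bid in IPO13-/- cells alone does not show that their responses differed between the genotypes.

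Before treatment, IPO13-/- cells had less Bbc3, Bid, Mcl1 and Bcl2l1 mRNA than IPO13+/+ cells, and more Bcl2l11 and Bak1. The share of all genes called was 18.7% higher and 19.4% lower, against 2 of 10 members higher and 4 lower. Among the 8620 expressed genes 23.0% were higher and 30.9% lower. No member passed 2-fold, while 4.71% of all genes did. For the members the median log2 difference was -0.11, and for all genes 0.00.

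Bbc3 again differed most, at 0.755 times its level in IPO13+/+ cells (log2 -0.41 ± 0.06 SE, FDR 1.1e-06). Bid, with the untreated values given above, was at 0.833 times (log2 -0.26 ± 0.04 SE, FDR 1.9e-05). Mcl1 was at 0.877 times (log2 -0.19 ± 0.04 SE, FDR 1.2e-04) and Bcl2l1 at 0.901 times (log2 -0.15 ± 0.04 SE, FDR 0.0077). The libraries of these 4 genes did not overlap between genotypes. Bcl2l1 lost its call without untreated IPO13-/- replicate 1 (FDR 0.11) and when libraries were scaled to their totals (log2 -0.07, FDR 0.25).

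Bcl2l11 had 33.3 and 31.4 CPM in the IPO13+/+ line against 40.2 and 37.4 CPM in the IPO13-/- line. Both IPO13-/- libraries were higher, by 1.20-fold (log2 0.26 ± 0.05 SE, FDR 1.3e-04). Bak1 had 58.6 and 60.4 CPM against 63.7 and 71.1 CPM, 1.13-fold higher (log2 0.18 ± 0.05 SE, FDR 0.0051), with an FDR of 0.18 without untreated IPO13-/- replicate 2. Bcl2, Bax, Pmaip1 and Bmf did not pass. Bax passed without untreated IPO13+/+ replicate 1 (log2 -0.13, FDR 0.023), and Bmf, all higher in IPO13-/- libraries, passed without untreated IPO13-/- replicate 1 (log2 0.21, FDR 0.04997).

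Between the treated genotypes, Bak1 and Bcl2l11 were higher and Mcl1 was lower in IPO13-/- cells, 2 and 1 of 10, while 19.1% of all genes were called higher and 17.5% lower. Among the 8620 expressed genes 26.7% were higher and 23.5% lower. For the members the median log2 difference was now 0.02, and for all genes 0.00. The number of members called, 3, ran from 2 to 6 over the alternative fits, and its difference from the 6 called before treatment was not tested.

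Bak1 had 60.6 and 58.2 CPM in the IPO13+/+ line against 70.7 and 72.7 CPM in the IPO13-/- line, 1.21-fold higher (log2 0.27 ± 0.05 SE, FDR 7.4e-05). Bcl2l11 was at 35.6 and 35.5 CPM against 40.3 and 39.2 CPM, 1.12-fold higher (log2 0.16 ± 0.05 SE, FDR 0.014), and Mcl1 was at 0.904 times its IPO13+/+ level (log2 -0.15 ± 0.04 SE, FDR 0.0020). Each of these 3 genes kept its 2 genotypes apart in the libraries. The call of Bcl2l11 was lost without treated IPO13+/+ replicate 1 (FDR 0.078) or 2 (FDR 0.094) and without treated IPO13-/- replicate 1 (FDR 0.10). Bbc3 had a log2 difference of -0.13 with an FDR of 0.053 and Bid of -0.10 with an FDR of 0.080. Both passed without either untreated IPO13+/+ library (FDRs of 0.027 and 0.045), as Bax did (log2 0.10, FDR 0.037). Bbc3 passed also without treated IPO13+/+ replicate 2 (FDR 0.042) and Bax without treated IPO13-/- replicate 1 (FDR 0.019).

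**Figure D4:**
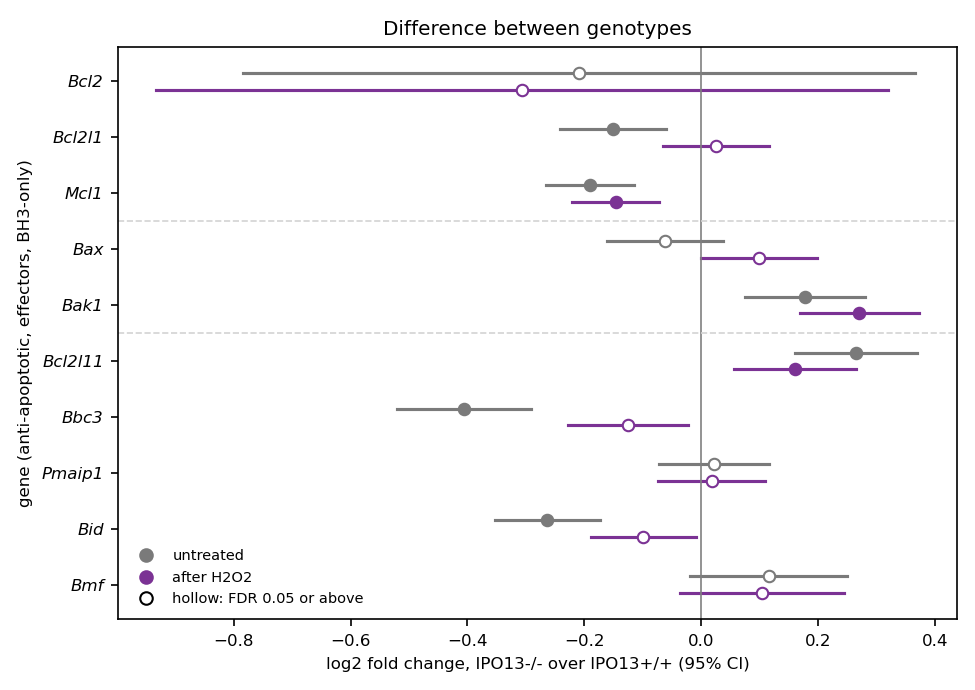
Log2 fold change of IPO13-/- over IPO13+/+ cells for each member, untreated and after H2O2, with 95% confidence intervals. Filled points passed an FDR of 0.05. Bbc3 and Bid lay to the left before treatment, and Bak1 and Bcl2l11 to the right in both conditions.

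The balance between opposing members was also followed in each library, from CPM per kb and without a test, since 2 libraries against 2 cannot give an exact permutation p below 0.333. The log2 ratio of Bbc3 to Mcl1 went in IPO13+/+ cells from -3.81 and -3.77 to -3.03 and -3.13 with treatment. The IPO13-/- libraries went from -4.08 and -3.93 to -3.08 and -3.04. Treated libraries were higher in both genotypes, and the treated genotypes overlapped. For the summed BH3-only over the summed anti-apoptotic members, the log2 ratio was -1.37 ± 0.02 before and -1.06 ± 0.01 after treatment of IPO13+/+ cells, with -1.29 ± 0.03 and -0.95 ± 0.05 for the IPO13-/- line (SD, n = 2). Per kilobase, the anti-apoptotic mRNAs together were therefore above the BH3-only mRNAs in each library, and the gap was narrower in the treated ones. Both untreated IPO13-/- libraries (-1.30 and -1.27) had a higher summed ratio than both untreated IPO13+/+ libraries (-1.39 and -1.36). The same held after treatment (-0.99 and -0.92 against -1.06 and -1.05). Most of the anti-apoptotic sum was Mcl1, with 170 of 183 CPM per kb in untreated IPO13+/+ replicate 1. The log2 ratio of Bax to Bcl2 lay between 11.2 and 12.3 and rests on the few Bcl2 reads.

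The genes most like a member in their pattern were searched among 11224 genes by the distance between centred log2 CPM profiles over the 8 libraries. For Bbc3 they were Rbm20 (distance 0.12), Itpkb (0.13) and Lif (0.21). Rbm20, a splicing factor gene, had log2 fold changes of 0.74 and 1.11 after H2O2 in IPO13+/+ and IPO13-/- cells and of -0.47 between the untreated genotypes. For Pmaip1 the nearest were Ptk7, Sbk1 and Carhsp1 (distances of 0.13, 0.13 and 0.15). For Bax they were Rchy1, Siva1 and Amdhd2, all at 0.10.

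The pathway around the family was read from gene lists, which were chosen with earlier results of these data known. Of 12 p53 target genes outside the family, 11 were higher and 0 lower after H2O2 in IPO13+/+ cells, and 10 were higher and 0 lower in IPO13-/- cells (edgeR). At an unadjusted p below 0.05, 1 was lower in IPO13+/+ and 0 in IPO13-/- cells. Their median log2 fold changes were 0.85 and 0.93, against -0.00 and 0.00 over all genes. Mdm2, whose product degrades p53, rose by 1.02 and 1.30 on the log2 scale and Phlda3, an inhibitor of AKT, by 1.08 and 1.39. The rise of Bbc3 was thus near the median of this list in IPO13+/+ cells and above it in IPO13-/- cells, and that of Pmaip1 was below it in both. The rise of Bax (log2 0.17 and 0.33) was also below the median in both. Between untreated genotypes 2 of the 12 were higher and 8 lower in IPO13-/- cells, led by the cell cycle inhibitor gene Cdkn1a at 45.1 and 21.1 CPM (log2 -1.10, FDR 1.3e-15). Of all genes, 18.7% were higher and 19.4% lower in that comparison. In the interaction 2.01% of all genes were called higher and 0.705% lower. Of the 12 targets, 5 passed, all with a larger log2 response in IPO13-/- cells. They included Cdkn1a (log2 0.50, FDR 7.1e-05), Phlda3 (0.31, FDR 0.0096) and Mdm2 (0.28, FDR 0.013). Between treated genotypes 2 of the 12 were higher and 8 lower in IPO13-/- cells, against 19.1% and 17.5% of all genes. Cdkn1a was at 79.1 CPM in treated IPO13+/+ and 52.0 CPM in treated IPO13-/- cells (log2 -0.60, FDR 6.0e-11).

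Of 12 factors known to regulate the family's transcription, 5 were higher and 1 lower in IPO13+/+ cells, while 6 were higher and 1 lower without IPO13. Of expressed genes, 13.2% were higher and 25.2% lower in IPO13+/+ cells, and 21.5% and 22.8% without IPO13. Among the 12, Trp73, a relative of p53, rose most, from 10.1 to 54.4 CPM (log2 2.43) and from 4.85 to 38.4 CPM (log2 2.99). Its responses differed (log2 0.55, FDR 3.0e-04). Foxo3 rose by 0.59 and 0.78 and Ddit3, a gene of the unfolded protein response, by 1.00 and 0.97 on the log2 scale. Jun rose by 0.81 in IPO13+/+ cells and had a smaller response in IPO13-/- cells (interaction -0.40, FDR 0.0023). Trp53 mRNA was at 418 CPM in untreated IPO13+/+ cells and did not pass in any comparison. In untreated IPO13-/- cells 2 of these factors were higher and 4 lower, among them Trp73 (log2 -1.05) and Myc (log2 -0.61). Of expressed genes, 23.0% were higher and 30.9% lower in that comparison.

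Downstream of the membrane, 4 of 17 apoptosome, caspase and inhibitor genes were higher and 5 lower in IPO13+/+ cells, while 4 were higher and 4 lower without IPO13. Of expressed genes, 13.2% were higher and 25.2% lower in IPO13+/+ cells, and 21.5% and 22.8% without IPO13. Apaf1, the scaffold that cytochrome c turns into the apoptosome, rose from 36.5 to 138 CPM (log2 1.92) and from 32.0 to 116 CPM (log2 1.86). Dffb, the nuclease that cuts DNA in dying cells, rose by 0.71 and 0.81 on the log2 scale. In the interaction 0 genes of this list passed at an FDR below 0.05 with edgeR, and 0 at an unadjusted p below 0.05. Between untreated genotypes 6 were higher and 6 lower in IPO13-/- cells, with Casp6 higher (log2 0.64) and Birc3 lower (log2 -0.48). Of expressed genes, 23.0% were higher and 30.9% lower between untreated genotypes, and 3.77% and 0.858% in the interaction.

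Upstream of Bid, 3 of 8 death receptor genes were higher and 0 lower in each genotype (edgeR), and 0 were lower at an unadjusted p below 0.05. Fas rose from 0.162 to 1.07 CPM (log2 2.72) and from 0.123 to 1.13 CPM (log2 3.10), both from a low level, and the TRAIL receptor gene Tnfrsf10b by 0.65 and 0.92, with a larger response in IPO13-/- cells (interaction 0.26, FDR 0.044). Cflar, which encodes the caspase-8 inhibitor FLIP, was lower in IPO13-/- cells both untreated (5.02 against 2.21 CPM, log2 -1.17) and treated (log2 -0.96).

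The lists also held partners of the family at the membrane and enzymes that set protein stability. Of 6 membrane partners, 5 were lower and 1 higher in untreated IPO13-/- cells, with a median log2 difference of -0.22 against 0.00 over all genes. The 1 higher was Mtch2, a BID partner at the mitochondria (log2 0.36, FDR 3.2e-08), and Vdac1 was lower (log2 -0.26). Of expressed genes, 23.0% were higher and 30.9% lower between untreated genotypes. Tomm20, whose product is a receptor for protein import, had a larger response in IPO13-/- cells (interaction 0.25, FDR 0.015), the 1 of the 6 that passed that test. Of expressed genes, 3.77% were higher and 0.858% lower in the interaction. Among 9 stability genes, Fbxw7, whose product is part of a ubiquitin ligase for MCL1, rose in both genotypes (log2 0.50 and 0.43), and Usp9x, which removes ubiquitin from MCL1, fell (log2 -0.31 and -0.23). Bag3 was lower in untreated IPO13-/- cells (15.0 against 7.39 CPM, log2 -1.03).

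Of 15 other BCL2 family genes, 13 had counts and 12 were above the level of 3 counts. In IPO13+/+ cells 0 were higher, also at an unadjusted p below 0.05, and 2 lower after H2O2 (edgeR), and in IPO13-/- cells 1 and 1, with a median log2 fold change over the 12 of -0.14 and -0.04. Bcl2l2, which encodes BCL-W, fell in both genotypes (log2 -0.18 and -0.39), and Bnip3 fell in IPO13+/+ cells (log2 -0.28). Hrk, a BH3-only gene, rose in IPO13-/- cells (log2 0.37, FDR 4.5e-04). Bcl2l14 was lower in IPO13-/- cells untreated (2.13 against 1.14 CPM, log2 -0.90) and treated (log2 -1.04).

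**Figure D5:**
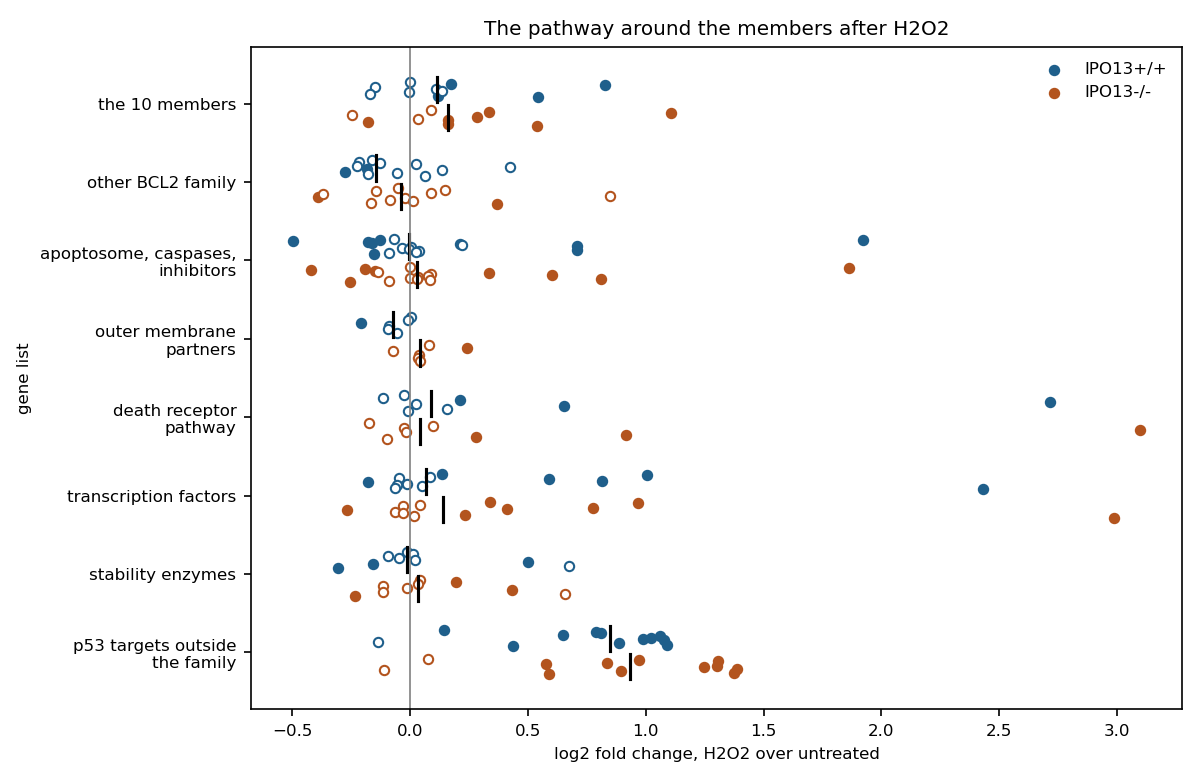
Log2 fold change after H2O2 of the 10 members and of 7 gene lists in IPO13+/+ and IPO13-/- cells. Each point is a gene, filled where it passed an FDR of 0.05, and black lines are medians. A gene with at most 2 counts per library is left out. The p53 targets had medians of 0.85 and 0.93, and the medians of the members and of the other lists lay between -0.14 and 0.16.

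Promoter sequence is shown for Bbc3, the member with the largest rise, and for Bax, the only member that rose with a p53 half-site in its window. RefSeq promoters on GRCm38.p6 were given for 9 of the 10 members, all but Pmaip1, as 16 start sites, and the 250 bases before each start were searched on both strands for the GC box GGGCGG, the core of SP1 sites, and for the consensus p53 half-site. Overlapping matches were counted. Over all 32851 start sites 32.7% held a GC box, 4.09% held 4 or more, and 7.13% held a p53 half-site. Of the 16 start sites of members, 9 held a GC box. The window of Bbc3 lies at chr7:16309333-16309582 on the plus strand, inside the span of the gene in GENCODE M21, with its 5 GC boxes in capitals. The window of Bax lies at chr7:45466899-45467148 on the minus strand, with its p53 half-site, 201 bases before the start, in capitals.
Bbc3: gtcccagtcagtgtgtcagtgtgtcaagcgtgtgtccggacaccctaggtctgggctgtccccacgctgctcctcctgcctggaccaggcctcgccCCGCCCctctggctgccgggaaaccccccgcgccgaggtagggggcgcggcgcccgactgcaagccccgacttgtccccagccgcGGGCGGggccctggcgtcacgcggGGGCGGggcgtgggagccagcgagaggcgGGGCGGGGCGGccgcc
Bax: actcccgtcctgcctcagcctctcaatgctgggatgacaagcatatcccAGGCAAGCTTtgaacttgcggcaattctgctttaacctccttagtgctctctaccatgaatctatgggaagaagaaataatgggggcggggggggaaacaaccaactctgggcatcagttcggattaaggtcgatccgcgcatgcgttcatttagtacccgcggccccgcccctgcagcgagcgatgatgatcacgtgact
The other 2 start sites of Bbc3 held 1 and 7 GC boxes, Bcl2, the lowest member, held 7, Mcl1, the highest, held 1, and Bcl2l1 and Bak1 held none in these windows. A p53 half-site was found for Bax and for 1 of the 3 start sites of Bmf. These matches describe the letters of the windows and are not evidence of binding.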

How the data were processed

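The libraries were made from total RNA with an mRNA kit. The submitters' processing notes name bcl2fastq, STAR 2.3.1, HTSeq and limma, and the build mm10, and the gene annotation is not given in the sources used here. The authors deposited raw counts per gene symbol for each library. The deposited CPM values, each count divided by the library total, were used only as a check of the counts. Tests were run in R 4.3.3 on the 19424 genes that had a count (minimum 1) in some library, using TMM factors and edgeR 4.0.16 (glmQLFit, glmQLFTest) in 1 model of 8 libraries with 1 coefficient per group. The Benjamini-Hochberg FDR was computed over these genes and its threshold was 0.05. CPM in the text is TMM-scaled. A standard error is the size of the log2 fold change over the root of its F statistic, and 95% intervals use it with the t distribution. The common dispersion was 0.00113. Levels per kilobase used the union of exons in GENCODE M21.

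Replicates carry the same numbers in each group. The correlation of deviations of same-numbered libraries ran from -0.09 to 0.64 over the 6 pairs of groups, and the labels name no shared culture, so no pairing was used. Alternatives were limma-voom (limma 3.58.1), DESeq2 1.42.0, relative log expression factors, library totals, filterByExpr, at least 10 counts over all libraries, the replicate block, fits of only the 4 libraries compared, and each library left out. A group left with 1 library was assumed to vary like the others, and the main model also shared the spread over all 4 groups. The groups did not vary alike. Over genes with at least 50 counts, the chi-square per gene between replicates was 15.0 in untreated and 2.26 in treated IPO13+/+ cells. It was 4.58 in untreated and 6.59 in treated IPO13-/- cells. The effect of this on the calls was not tested. The procedure was also run on simulated counts, with changes set only in treated IPO13+/+ cells. Each simulated gene had the same spread in all groups, so that run does not cover the unequal variation above. The members and the gene lists were chosen with earlier results of these data known. All members were named in each comparison. Of a list, the genes past the threshold and 2-fold were eligible to be named, or the 3 with the smallest FDR and at least 1 CPM where fewer than 3 passed. Trp53 was named after its values were seen.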

Additional observations from a re-analysis of the deposited data

Results flagged for a closer look

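The response of Bbc3 to H2O2 differed between the genotypes by the interaction test (log2 difference 0.28, larger in IPO13-/- cells, FDR 0.038 in edgeR's quasi-likelihood test). In 2 of 2 treated libraries of each genotype Bbc3 was above both untreated libraries of that genotype. Over 15 alternative fits the difference was between 0.21 and 0.33, and the FDR, between 0.0047 and 0.46, was below 0.05 in 4.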

How the results depend on the processing

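The rises of Bbc3 and Pmaip1 after H2O2 passed in all 16 alternative fits of each genotype, with log2 fold changes of Bbc3 from 0.77 to 0.88 in IPO13+/+ and 1.06 to 1.18 in IPO13-/- cells. After H2O2 in IPO13+/+ cells the number of members called, 4, became 7 with the replicate block, which added Bcl2l1 (FDR 0.036) and Bcl2l11 (FDR 0.018) as higher and Bmf (FDR 0.036) as lower, and was 2 to 6 with a library left out, and the number of all genes called, 4908, became 3163 with only 4 libraries and was 2952 to 4729 with a library left out. In IPO13-/- cells 5704 genes were called, and 3204 to 6455 with a library left out. Between treated genotypes the members called, 3, became 5 with relative log expression factors, 6 with the replicate block, which added Bbc3, Bid and Bax, 5 with only 4 libraries and 2 to 6 with a library left out. In the interaction the 1 member called became 0 with limma-voom, DESeq2, library totals, filterByExpr and at least 10 counts, and 0 to 3 with a library left out, while the 527 genes called became 255 with limma-voom, 294 with DESeq2, 349 with filterByExpr, 1291 with the replicate block and 73 to 1157 with a library left out. The replicate block changed the call of no member in IPO13-/- cells or between untreated genotypes. Deviations of same-numbered libraries were correlated among the groups other than treated IPO13+/+ cells (0.35 to 0.64) but not with that group. The labels do not say whether they pair. With library totals, 60.5% of called genes were higher after H2O2 in IPO13+/+ cells (45.4% with TMM factors), 67.1% between untreated genotypes (49.0%) and 30.8% in the interaction (74.0%). The cause of these shifts was not tested.

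Signs turned only for log2 values near 0 or for Bcl2. In IPO13+/+ cells Bak1 (-0.0028) became 0.00785 with DESeq2, 0.00782 with relative log expression factors, 0.0366 with library totals, 0.0259 with filterByExpr and 0.0239 with only 4 libraries. Bid (-0.0034) became 0.00716, 0.00716, 0.0359, 0.0252 and 0.0233 in the same fits. With library totals Bcl2l11 in IPO13-/- cells became -0.000719, Bax between untreated genotypes 0.0186 and Mcl1 in the interaction -0.0275. With a library left out, Bcl2 ran from -0.36 to 0.11 in IPO13+/+ and -0.53 to 0.0261 in IPO13-/- cells, from -0.42 to 0.0449 between untreated genotypes and from -0.41 to 0.15 in the interaction. Likewise Bak1 ran from -0.0324 to 0.0264 and Bid from -0.0133 to 0.0216 in IPO13+/+ cells, Bax from -0.13 to 0.0134 between untreated genotypes, Pmaip1 from -0.0351 to 0.0695 between treated genotypes, and Bak1 from -0.00512 to 0.17, Pmaip1 from -0.0698 to 0.0358 and Bmf from -0.10 to 0.0534 in the interaction. The 17 to 36 reads of Bcl2 limit what can be said of it.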
